A study of Mus musculus with 2 samples.

Results

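Root cells, which lie beside the stria vascularis (SV), were examined as nuclei that carried root cell marker transcripts. SV was dissected from P30 CBA/J mice, and nuclei were profiled by droplet single-nucleus RNA-Seq in 2 libraries. The MethFix library held nuclei fixed in methanol, from about 5 to 6 mice. The RNAlater library held nuclei from tissue kept in RNAlater before nuclei were isolated, from about 10 mice. These numbers of mice are those of the GEO labels, and the study's methods give a smaller number for RNAlater. Each library pooled its animals, all mice were at the same age and of the same strain, and no mutant or drug-treated group was included. A barcode, the tag of a droplet that stands for a nucleus, was a member when its unique molecular identifiers (UMIs, counted transcript molecules) for Ceacam16, Epyc, Lgr5 and Rspo2 summed to at least 3. That sum also had to exceed the sum for the spindle cell markers Anxa1, Il1rapl2 and Kcnq5. Of 3486 barcodes that passed the quality limits, 86 were members, or 2.47% (95% exact Clopper-Pearson interval, 1.98 to 3.04%). These are called root-marker barcodes here, since the measured values of those genes chose them.

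Root cells are epithelial cells of the outer sulcus whose processes reach into the spiral ligament, and spindle cells lie at the margins of the SV. Both cell types are known for pendrin, the anion exchanger encoded by Slc26a4, which moves bicarbonate into endolymph and whose loss causes deafness. Lgr5 is a receptor for R-spondins, the secreted proteins (Rspo2 among them) that raise Wnt signalling by keeping Frizzled receptors at the cell surface. Ceacam16 is a glycoprotein of the tectorial membrane, and Epyc encodes epiphycan, a small proteoglycan.

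The 2 matrices could not be treated as independent. They shared 3323 barcodes, so MethFix barcodes were added to the RNAlater matrix only where absent from it, and the resulting 5293 barcodes were counted as 1 sample. Barcodes are not replicates, so no test between groups was possible, and intervals below cover counting error only. Of the 86 members, 76 came from the RNAlater matrix and 10 were MethFix-only barcodes. Of the 73 members present in both matrices, 70 met the rule in their MethFix counts as well. A UMI of Slc26a4 was found in both matrices for 49 of the 73, in RNAlater alone for 3, in MethFix alone for 0 and in neither for 21.

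The 10 MethFix-only members stood apart. Markers of intermediate cells, the melanocytes of the SV (Dct, Kcnj13, Met, Nrp2, Pax3 and Tyr), summed to 8454 CPM (a count scaled to 1e+06 UMIs of the group) in them against 560 CPM in the 76 RNAlater members. The other barcodes held 11325 and 8901 CPM in the same libraries. The most abundant of these markers in members was Dct, with 231 UMIs in the 10 MethFix-only members and 128 in the 76 others, while Pax3 had 1 UMI over all members. Markers of another class matched or exceeded the root marker sum in 14 members, 7 of which were MethFix-only. The Slc26a4 ratio and the counts of the Slc26a4 split are given with and without the MethFix-only members.

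Depth ranged from 506 to 7801 UMIs per member with a median of 3523 and 327564 UMIs in all. The 3400 other barcodes had a median of 3910.5 UMIs and 13496485 UMIs in all. Members had a median of 0.240% mitochondrial UMIs against 0.635% in the others. Within libraries, the medians were 0.217% in members and 0.408% in the others from the RNAlater matrix, and 1.55% and 1.48% among MethFix-only barcodes.

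The marker genes that chose the members were spread unevenly among them. Ceacam16 (chr7:19852097-19861299, GRCm38) ranged from 0 to 70 UMIs per member with a median of 2.5, and 53 members had at least 1. Rspo2 (chr15:43020794-43170826) ranged from 0 to 37 UMIs and was present in 49 members. Epyc (chr10:97644068-97682454) ranged from 0 to 43 UMIs and was present in 41 members. Lgr5 (chr10:115450311-115587780) ranged from 0 to 28 UMIs and was present in 39 members. A single gene led in most members. Ceacam16 had the most UMIs of the 4 in 42 members, Rspo2 in 15, Epyc in 13 and Lgr5 in 13, with ties in 3. At the edge of the rule, 4 members had a sum of exactly 3, and 3 of these had a Slc26a4 UMI. Just outside it, 12 barcodes had a sum of 2, and 2 of these had a Slc26a4 UMI.

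Slc26a4, the marker left out of the rule (chr12:31519827-31559969, minus strand), went with the label in most members but not in all. It was found in 55 of the 86 members, or 64.0% (exact interval, 52.9 to 74.0%), and was at 0 UMIs in the other 31. The range was 0 to 49 UMIs per member with a median of 2. Its level was 2033 CPM in members and 41.1 CPM in all other barcodes, a log2 ratio of 5.63 (95% exact interval, 5.46 to 5.79) or 49.4-fold. Without the MethFix-only members the log2 ratio against the same barcodes was 5.77 (5.60 to 5.93), and without the 14 members rich in markers of another class it was 5.69 (5.52 to 5.86). Other choices moved it more. It was 4.81 with no upper limit on UMIs and 4.27 against the mean of 5 marker classes. With the spindle-side barcodes (defined below) left out of the others, it was 6.91.

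Slc26a4 was also found in spindle-marker barcodes and at lower shares elsewhere. A looser spindle-side group had spindle marker UMIs of at least 3 and above the root marker sum, which gave 216 barcodes. It was mixed, since Dct alone had 10018 UMIs in it. A narrower group of 89 spindle-rich barcodes, those in which spindle marker UMIs exceeded the marker UMIs of every other class, was added after the data were seen. A Slc26a4 UMI was found in 75.3% (65.0 to 83.8%) of spindle-rich barcodes and in 36.1% of spindle-side barcodes. It was found in 19.8% of barcodes led by markers of Reissner's membrane, the epithelium between the scala media and scala vestibuli. The shares were 1.13% in marginal-marker, 1.05% in basal-marker and 0.752% in intermediate-marker barcodes, whose median depths were 5040, 3389 and 4319 UMIs against 3523 in members. After each barcode was thinned to 1000 UMIs, which left out 6 shallow members, the share was 52.5% (41.0 to 63.8%) in members, 56.0% in spindle-rich and 0% in intermediate-marker barcodes. The 0 of 883 thinned intermediate-marker barcodes allows a share of up to 0.417% (exact upper limit) with a UMI at that depth, and does not limit the share at full depth. The order of levels was members at 2033 CPM, spindle-rich at 1162 CPM, Reissner-marker at 136 CPM and unclassed barcodes at 72.7 CPM, with marginal-, basal- and intermediate-marker barcodes at 8.2, 8.3 and 1.8 CPM. The marginal- and basal-marker levels could not be told apart by their counting intervals.

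**Figure D1:**
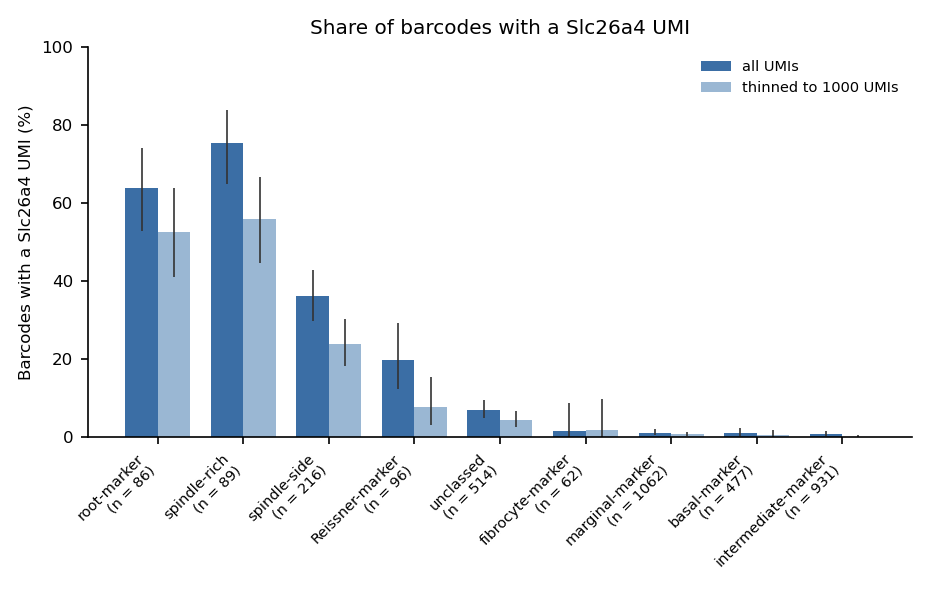
Share of barcodes with at least 1 Slc26a4 UMI (vertical axis, percent) in root-marker barcodes and 8 other marker-defined groups, from all UMIs (dark bars) and after thinning to 1000 UMIs (light bars). Error bars are exact 95% intervals. Root-marker (64.0%) and spindle-rich (75.3%) barcodes stand above the rest, with marginal-, basal- and intermediate-marker barcodes at or under 1.13%.

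Promoter sequence is shown for Slc26a4, which made the split used below, for Epyc, a marker in the rule, and for Dgkb, which within members had nearly all of its UMIs in those without Slc26a4 (249 of 252). Each run is the 250 bases before the transcript start from the RefSeq table (GRCm38.p6), 5′ to 3′ on the gene's strand. Entries were matched for 9 of 14 genes looked up, giving 14 windows, since some genes have several starts. The 3 windows were chosen after the search because they hold a motif. Capitals mark 2 motifs searched on both strands, so that a motif on the other strand shows as its reverse complement. The first, TCAAAG, belongs to the TCF/LEF factors that carry Wnt signals to DNA. The second, GTAAACA, belongs to forkhead factors, and the 2 motifs did not overlap.
Slc26a4 (chr12:31559985-31560234, minus strand): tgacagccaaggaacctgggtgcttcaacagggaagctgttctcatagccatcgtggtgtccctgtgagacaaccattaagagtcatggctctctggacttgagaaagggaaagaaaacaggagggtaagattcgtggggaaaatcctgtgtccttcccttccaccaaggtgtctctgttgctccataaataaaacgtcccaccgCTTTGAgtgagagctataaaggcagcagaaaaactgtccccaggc
Epyc (chr10:97643818-97644067, plus strand): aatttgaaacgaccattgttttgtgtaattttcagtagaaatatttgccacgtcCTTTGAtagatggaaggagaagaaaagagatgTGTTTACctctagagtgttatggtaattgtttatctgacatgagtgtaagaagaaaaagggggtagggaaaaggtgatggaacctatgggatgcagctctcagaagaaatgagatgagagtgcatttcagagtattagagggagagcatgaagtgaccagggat
Dgkb (chr12:37879924-37880173, plus strand): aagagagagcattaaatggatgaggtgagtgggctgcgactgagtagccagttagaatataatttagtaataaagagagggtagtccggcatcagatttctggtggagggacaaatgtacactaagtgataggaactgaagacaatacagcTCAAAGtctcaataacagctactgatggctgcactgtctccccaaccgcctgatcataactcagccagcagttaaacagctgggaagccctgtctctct
Each of the 3 windows held the TCF/LEF letters once, and the Epyc window held the forkhead letters once. Over all 14 windows, 5 held the TCF/LEF letters (in 4 of the 9 genes) and 2 the forkhead letters. The Otog, Map1b, Lmx1a and Prss36 windows held neither. The nuclear receptor motif AGGTCA was searched too and was in 1 window of Kcnj16 and in none of the 3 shown. Of all 32851 promoter windows of this length, 13.8% held the TCF/LEF letters and 3.17% the forkhead letters, and a match describes the sequence without showing a bound site.

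Among members, Slc26a4 and Ceacam16 were seldom both high. Of the 35 members with 5 or more Slc26a4 UMIs (5 to 49, median 15), 33 had at most 3 UMIs of Ceacam16. The 20 members with 1 to 4 Slc26a4 UMIs included 14 with at least 5 UMIs of Ceacam16. The 31 members without Slc26a4 had a median of 14 Ceacam16 UMIs, against 1 in the 55 with it. The members with 1 to 4 Slc26a4 UMIs had a level of 687 CPM, at which 11 of the 31 were deep enough to expect 3 UMIs, so a low level could not be told from absence in the other 20. Lgr5 and Rspo2, which encode a receptor and its ligand, were both detected in 29 members, and all 29 had a Slc26a4 UMI. Since a member needed 3 UMIs of the 4 rule genes, a member low in 1 of them had to be higher in another, so the contrast of Ceacam16 with Lgr5 and Rspo2 is partly set by the rule. Slc26a4 is not a rule gene, but it went with Lgr5 and Rspo2, so its contrast with Ceacam16 is not free of the rule either.

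**Figure D2:**
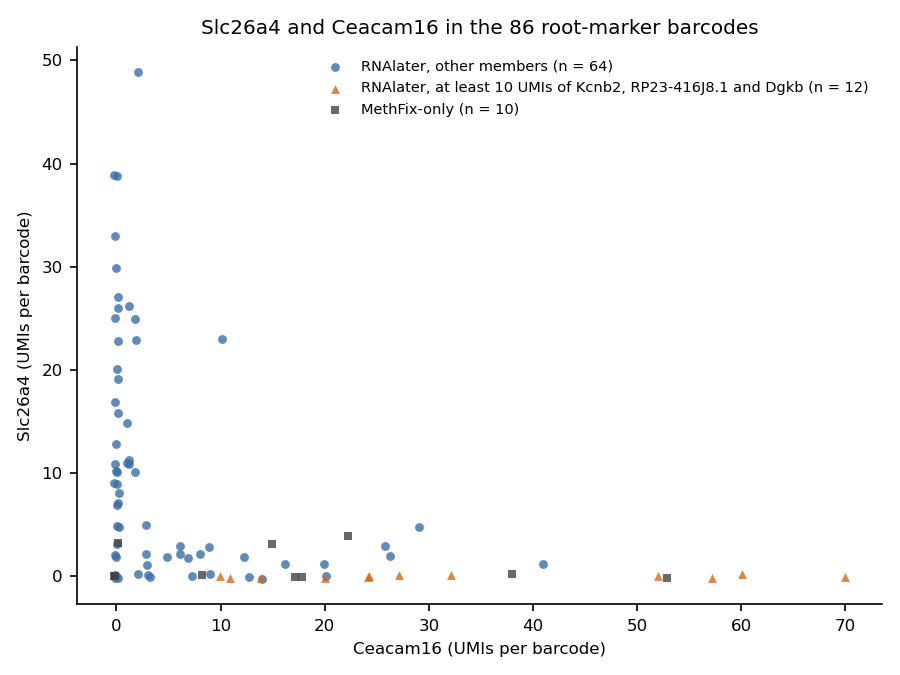
Slc26a4 UMIs (vertical axis) against Ceacam16 UMIs (horizontal axis) in each of the 86 root-marker barcodes, moved by under 0.25 UMI to part overlapping points. Points lie along both axes, with Slc26a4 up to 49 UMIs where Ceacam16 is low, and the 12 barcodes rich in Kcnb2, RP23-416J8.1 and Dgkb (triangles) and most MethFix-only barcodes (squares) lie at the foot of the plot.

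Root-marker barcodes were then set against all 3400 other barcodes to find which genes accompany the markers. A gene was called higher when its log2 ratio of CPM was at least 2 with at least 20 UMIs in members, among 12235 genes with 50 or more UMIs over all barcodes, and 270 (2.21%) met this. A gene was called lower at a log2 ratio of at most -2, among 3338 genes expected at 20 or more UMIs in members, and 238 (7.13%) met this. The median log2 ratio of those 3338 genes was -0.15. With no upper limit on UMIs, 368 genes were called higher and 21 lower. The contrast includes the genes of the rule, so the counts describe the members and are not a test of them. The 50 UMIs were counted with members included, so some genes were tested only through their UMIs in members.

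Genes of the otic extracellular matrix were among the higher genes. Otog (chr7:46240987-46311434) encodes otogelin of the tectorial and other acellular membranes, and had 114 UMIs in members against 29 in all other barcodes, a log2 ratio of 7.34 (6.74 to 7.98). Otogl (chr10:107760531-107912134), its otogelin-like relative, had 370 against 129 UMIs, a log2 ratio of 6.88 (6.59 to 7.19). Otoa, which encodes otoancorin, had 37 against 37 UMIs, a log2 ratio of 5.36 (4.67 to 6.06). Otog was concentrated in 23 members (up to 19 UMIs) and Otogl in 39 (up to 35 UMIs), so neither marked members as a whole. Most Otog UMIs came from 12 members rich in Kcnb2, RP23-416J8.1 and Dgkb (at least 10 UMIs of these genes together), none with Slc26a4. The root cell label may not hold for these 12 members, and this was not tested. Without those 12, Otog had 30 UMIs in members, a log2 ratio of 5.68 (4.90 to 6.47).

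Other named genes were found in most members. Grb14, an adaptor that binds the insulin receptor, was found in 77 of 86 members with 552 UMIs against 740 in all others, a log2 ratio of 4.94 (4.78 to 5.10). A930011G23Rik, an uncharacterised gene, had the most UMIs of the 20 named genes, 2184 in 69 members, a median of 12 and a highest value of 126, and its log2 ratio was 4.77 (4.69 to 4.84). Srgap1, a GTPase-activating protein of Slit-Robo signalling, was found in 62 members with a log2 ratio of 5.53 (5.33 to 5.73). Prss36, a secreted serine protease gene, was found in 59 members (0 to 64 UMIs, median 2) with a log2 ratio of 6.00 (5.77 to 6.23). The microtubule-associated protein gene Map1b (chr13:99421446-99516540) was found in 57 members (0 to 40 UMIs, median 4) with a log2 ratio of 5.28 (5.13 to 5.42).

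Apart from the rule genes, the highest ratio among the named genes belonged to a long non-coding RNA gene that few members carried. RP23-416J8.1 (chr4:142598441-143074839) had 338 UMIs in 13 members against 55 in all others, a log2 ratio of 7.98 (7.57 to 8.42). Dgkb, which encodes a diacylglycerol kinase, was found in 15 members with a log2 ratio of 6.14 (5.84 to 6.45), and the non-coding Gm14066 in 22 members with a log2 ratio of 6.52 (6.17 to 6.88). Without the same 12 members, RP23-416J8.1 had 1 UMI and Dgkb 3 UMIs in members, too few for a call, and Gm14066 had a log2 ratio of 4.24 (3.65 to 4.80). The remaining named genes (Aox2, Klhl14, Wscd2, Nat8l, Nckap5, Col4a6, Tdrd12, A230001M10Rik and Hs3st1) had log2 ratios from 5.32 to 6.15 and were found in 19 to 46 members. Of these, Klhl14 had 12 UMIs without the 12 members, too few for a call. Of the 20 named genes, 12 overlap another annotated gene (9 on the same strand), and for these, reads of overlapping genes may be shared.

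**Figure D3:**
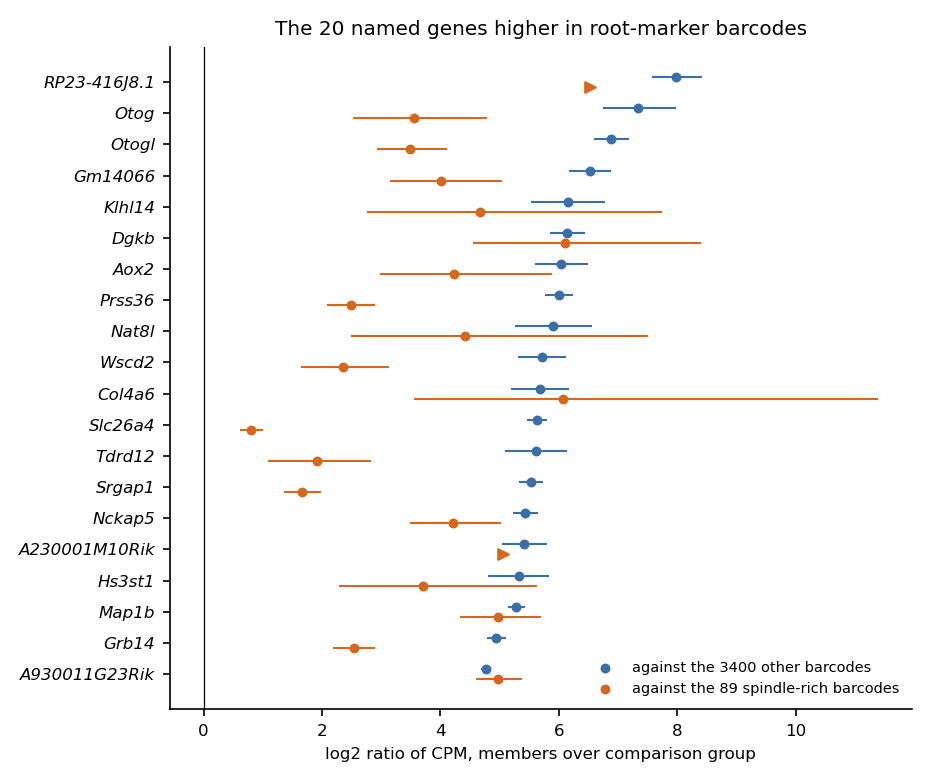
Log2 ratio of CPM (horizontal axis) for the 20 named genes higher in the 86 root-marker barcodes, against the 3400 other barcodes (blue) and the 89 spindle-rich barcodes (orange). Points are ratios, lines exact 95% counting intervals, and triangles lower bounds where spindle-rich barcodes had 0 UMIs. Slc26a4 falls from 5.63 to 0.81 between the comparisons, while Map1b (5.28 and 4.97) and A930011G23Rik (4.77 and 4.97) stay high in both.

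The named lower genes included markers of other cell types of the SV. Pax3, a transcription factor of melanocytes, had 1 UMI in members against 4041 in the others, a log2 ratio of -6.62 (-11.92 to -4.14). Dkk2, a secreted Wnt inhibitor, had 1 against 3178 UMIs, a log2 ratio of -6.27 (-11.57 to -3.79). Cdh19, a cadherin of neural crest derivatives, had 0 UMIs in members against 2134, at least 4.11 lower on the log2 scale with members set to a floor of 3 UMIs. Dlc1, a GTPase-activating protein, had 16 against 19870 UMIs, a log2 ratio of -4.91 (-5.72 to -4.21), which was -7.17 (-9.44 to -5.62) in the RNAlater members alone. Esrrb, a nuclear receptor of marginal cells, had 21 against 15901 UMIs, a log2 ratio of -4.20 (-4.89 to -3.59). Opcml, Slc24a2, Bnc2, Gm38048 and Sgip1 had log2 ratios from -5.32 to -4.40.

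Wnt pathway genes were called in both directions, but several of their lists held too few tested genes to set against the shares over all genes (2.21% higher and 7.13% lower). Of the 17 Wnt receptors and co-receptors tested for being higher, only Lgr5, a gene of the rule, was called, and 0 of 6 were called lower. Fzd3 and Fzd6, Frizzled receptors, had log2 ratios of 1.69 (1.17 to 2.17) and 1.34 (0.77 to 1.86). Rnf43 and Znrf3, the ligases that remove Frizzled receptors and that R-spondins block, had log2 ratios of 1.48 (1.14 to 1.81) and 0.14 (-0.18 to 0.45). Rspo3 was lower, with 22 UMIs in members against 7425, a log2 ratio of -3.03 (-3.71 to -2.43), 20 of the 22 being in members with Slc26a4, while Rspo1 and Rspo4 had 0 UMIs in members. Among Wnt inhibitors 1 of 5 was called higher, Sfrp1 at 4.48 (3.61 to 5.30), and 2 of 3 lower, Dkk2 and Dkk3, with Dkk3 at -3.15 (-4.21 to -2.26). Without the 12 members described above that held most Otog UMIs, Sfrp1 had 19 UMIs in members, short of the minimum for a call. Its log2 ratio was then 4.67 (3.79 to 5.51). Of the Wnt ligands 0 of 4 were called higher and 1 of 2 lower, Wnt5b at -2.90 (-4.52 to -1.67). Of 8 Wnt target and effector genes tested, 0 were called higher, and of 4 tested, 0 were called lower. Apc, of the complex that degrades beta-catenin, was at 0.05 (-0.22 to 0.32) and Ctnnb1, beta-catenin itself, at -1.51 (-2.12 to -0.97).

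Most ion transport genes tested were called neither higher nor lower. Of 27 tested, Slc26a4 and Kcnj16 were called higher, against 2.21% of all genes tested. Kcnj16, a subunit of inward rectifier potassium channels, had 39 UMIs in 20 members (0 to 7 UMIs each) against 67 UMIs in all others, a log2 ratio of 4.58 (3.98 to 5.17). It had 0 UMIs in the 10 MethFix-only members. Its partner Kcnj10 was not higher, at 159 CPM in members and 352 CPM in the others, a log2 ratio of -1.15 (-1.57 to -0.76), with 894 CPM in intermediate-marker barcodes. Of 14 tested, Slc12a2, Kcnq1 and Kcne1 were called lower (7.13% over all genes), at -2.44 (-2.63 to -2.27), -2.13 (-2.43 to -1.84) and -2.63 (-3.43 to -1.92). These encode the sodium-potassium-chloride cotransporter and the potassium channel of marginal cells. Without the 12 members described above that held most Otog UMIs, Kcnq1 was at -1.97 (-2.28 to -1.67), short of the call. The median over the 14 was -1.52, against -0.15 over all genes tested.

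Of 19 tectorial and otic matrix genes tested, 8 were called higher (2.21% over all genes tested), 2 of them (Ceacam16 and Epyc) being in the rule. The others were Otog, Otogl, Otoa, Col4a3, Col4a5 and Col9a1, the collagens at log2 ratios of 2.35 (1.78 to 2.89), 2.09 (1.84 to 2.33) and 2.73 (2.04 to 3.36). Coch, which encodes cochlin of the spiral ligament, was called lower at -2.14 (-3.77 to -0.92). Coch was at -1.88 (-3.50 to -0.65) without the 12 members described above that held most Otog UMIs. The tectorins Tecta and Tectb, core proteins of the tectorial membrane, had 0 UMIs in members. The median over the 5 matrix genes expected at 20 or more UMIs was 0.95, against -0.15 over all genes. The rule gene Ceacam16 was 1 of the 5 and reached that expected count through its 886 UMIs in members, so this median is partly set by the rule.

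Transcription factors of the otic epithelium were among the higher genes. Of 40 tested, 8 were called higher (2.21% over all genes tested), including Nr2f1 at 4.71 (4.33 to 5.09), Irx3 at 3.85 (3.19 to 4.46), Irx5 at 3.32 (2.89 to 3.74), Rorb at 3.11 (2.96 to 3.25), Gata3 at 2.18 (1.95 to 2.41) and Eya4 at 2.08 (1.94 to 2.21). The Rorb call rested on the 12 members rich in Kcnb2, RP23-416J8.1 and Dgkb, and without them its log2 ratio was 1.36 (1.08 to 1.62). Eya4, a transcriptional coactivator, was found in 80 of 86 members. Of 24 tested, 6 were called lower, against 7.13% over all genes. They were Tbx3, Esrrb, Esrrg, Meis1, Meis2 and Glis3, with Meis1 at -2.81 (-3.43 to -2.26). Esrrg was at -1.91 (-2.47 to -1.41) without the 12 members, short of the call. The median over the 24 was -0.08.

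Among 18 junction genes tested, Cldn14, Ildr1 and Tjp3 were called higher and 0 of 10 lower, against 2.21% and 7.13% over all genes tested. Cldn14, a claudin of tight junctions, had 112 UMIs in 54 members and a log2 ratio of 4.33 (3.99 to 4.67). Gjb6 and Gjb2, the connexins of cochlear gap junctions, were at -0.08 (-0.37 to 0.20) and -0.44 (-0.85 to -0.06). Of 8 Notch pathway genes tested, Jag1, a ligand, was called higher at 3.62 (2.82 to 4.36) with 20 UMIs in 11 members. Of these 20 UMIs, 3 were left without the 12 members described above that held most Otog UMIs. Of 8 acetylcholine receptor and signalling genes tested, 0 were called higher, against 2.21% over all genes tested. With 28 UMIs over the whole list in members, 0 of its genes had the 20 UMIs needed for a call. The 0 calls therefore do not describe their ratios. The 22 genes of this list summed to 85.5 CPM in members and 143 CPM in the others, and 14 of the 22 had 0 UMIs in members. Of 32 tested genes whose loss causes hearing loss, 12 were called higher (2.21% over all genes tested), among them Slc26a4, Otog, Otogl, Otoa, Cldn14, Ildr1, Eya4, Gata3, Col4a3 and the rule gene Ceacam16. Otog and Otoa were tested only through their UMIs in members. Of 20 tested, 7 were called lower (Coch, Esrrb, Kcnq1, Kcne1, Hgf, Met and Slc12a2), against 7.13% over all genes. The median over the 20, the rule gene Ceacam16 among them, was -0.13. Tmprss3, a membrane serine protease gene, was at 5.17 (4.62 to 5.71).

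The split by Slc26a4 asked whether members with and without pendrin transcripts share the rest of their profile. The 55 members with a Slc26a4 UMI held 215545 UMIs and the 31 without held 112019, with median depths of 3512 and 3785 UMIs. Of 3279 genes with 20 or more UMIs over members, 105 (3.20%) were called higher in those with Slc26a4 and 118 (3.60%) lower, with a median log2 ratio of -0.01. MethFix-only barcodes were 3 of the 55 and 7 of the 31, and in the RNAlater matrix alone 140 genes were higher and 119 lower. This split is itself made from a measured gene, and the groups are described with no test.

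Map1b, Lmx1a and Dclk1 were among the genes called higher in members with Slc26a4. Of 27 transcription factors tested in the split, 3 were called higher (Pax2, Lmx1a and Irx3) and 3 lower (Gata3, Rorb and Nr2f1), against 3.20% and 3.60% over all genes tested. Map1b had 751 UMIs in 50 of 55 members with Slc26a4 and 15 UMIs in 7 of 31 without, a log2 ratio of 4.70 (3.97 to 5.55). Lmx1a, a LIM homeodomain factor of inner ear development, had 301 against 9 UMIs, a log2 ratio of 4.12 (3.18 to 5.26). Dclk1, a microtubule-associated kinase, had 2487 against 79 UMIs, a log2 ratio of 4.03 (3.71 to 4.37). Against all other barcodes Dclk1 was close to equal in members as a whole, at a log2 ratio of -0.07 (-0.13 to -0.01). Its level was 11538 CPM with Slc26a4, 705 CPM without and 18260 CPM in marginal-marker barcodes. Itgbl1, Dlgap1, Galnt7, Epha7, Samd12, Fam184b and Nebl had log2 ratios from 2.94 to 3.75. Pax2, a factor of otic development, was called higher at 3.04 (1.87 to 4.52), as were Irx3 at 2.86 (0.88 to 5.98) and the receptor Ror1 at 3.28 (2.32 to 4.43).

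The genes lower with Slc26a4 were concentrated in part of the members without it. RP23-416J8.1 had 0 UMIs in the 55 members with Slc26a4 and 338 in those without, at least 7.76 higher on the log2 scale with a floor of 3 UMIs. Dgkb had 3 against 249 UMIs, a log2 ratio of -7.32 (-9.61 to -5.76). Kcnb2 (chr1:15287254-15723750), a voltage-gated potassium channel subunit, had 8 against 395 UMIs, a log2 ratio of -6.57 (-7.79 to -5.58). Without the 12 members rich in these 3 genes, RP23-416J8.1 had 1 UMI and Dgkb 0 UMIs in members without Slc26a4, and Kcnb2 had 8, a log2 ratio of -1.93 (-3.54 to -0.32), short of the call. Otog had 17 against 97 UMIs, a log2 ratio of -3.46 (-4.29 to -2.70), while Otogl was not split in this way, at 0.55 (0.21 to 0.90). Nr2f1, Rorb and Gata3 were called lower with Slc26a4, at -3.20 (-4.04 to -2.43), -2.57 (-2.88 to -2.27) and -2.38 (-2.89 to -1.89). Rorb turned direction without the 12 members rich in Kcnb2, RP23-416J8.1 and Dgkb, with 120 UMIs with Slc26a4 against 1 without, a log2 ratio of 4.98 (2.47 to 10.29). Otog was at -1.54 (-2.67 to -0.38) without them, short of the call. Slc12a7, a potassium-chloride cotransporter, was at -3.45 (-4.47 to -2.55). Anks1b, Pde10a, Nrxn3, Kcnq3, Dpf3, Tenm4 and Gm14066 were also among the lowest. Some of these rested on few nuclei, with 176 UMIs of Nrxn3 in 4 members without Slc26a4, 117 of Pde10a in 5 and 97 of Kcnq3 in 6. Neuron markers summed to 18.6 CPM (4 UMIs) in members with Slc26a4 and 170 CPM (19 UMIs) in those without. The part of neuron markers in the split was not tested. Grb14 at 0.45 (0.18 to 0.73), Eya4 at 0.00 (-0.27 to 0.28), Tmprss3 at -0.02 (-0.86 to 0.86) and Kcnj16 at 0.23 (-0.80 to 1.34) had smaller ratios, and the intervals of the last 3 included 0.

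**Figure D4:**
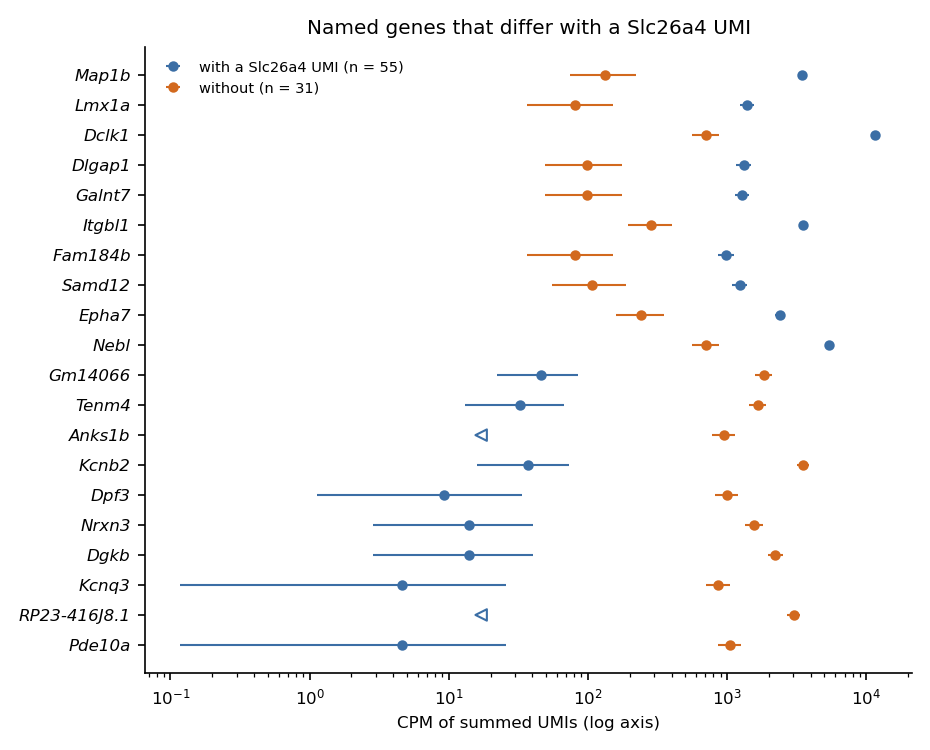
CPM of summed UMIs (horizontal log axis) for the 20 genes named in the split, in members with a Slc26a4 UMI (blue, n = 55) and without (orange, n = 31). Lines are exact 95% Poisson intervals, some narrower than the point, and open triangles mark the upper limit where a group had 0 UMIs. Map1b is at 3484 CPM with and 134 CPM without Slc26a4, and Dgkb at 13.9 CPM with and 2223 CPM without.

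Many of the genes lower with Slc26a4 came from 12 members. These had at least 10 UMIs of Kcnb2, RP23-416J8.1 and Dgkb together, a threshold chosen after the values were seen, and all 12 were RNAlater members without Slc26a4. They had 10 to 70 UMIs of Ceacam16 each and 0 UMIs of Epyc, Rspo2 and Map1b in all 12. Ebf1, a helix-loop-helix transcription factor picked after its values were seen, had 465 UMIs in them, of 680 over all members. Ebf1 was not confined to them. Of the 20 members with 1 to 4 Slc26a4 UMIs, 12 had Ebf1, with 67 UMIs in all. Without the 12 members rich in Kcnb2, RP23-416J8.1 and Dgkb, 36 genes in place of 118 were called lower with Slc26a4, and 107 in place of 105 higher.

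Those 12 members were divided, after their values were seen, into 2 sets. In 7 members Slc1a3, the glutamate and aspartate transporter found in supporting cells around inner hair cells, was at 7 to 22 UMIs (median 13) and Kcnb2 at 0 to 9. In the other 5, Kcnb2 was at 42 to 109 UMIs (median 70) and Slc1a3 at 0 to 1. RP23-416J8.1 was present in both sets, at 14 to 44 UMIs in the first and 10 to 45 in the second, as were Dgkb and Otog. Genes named below were chosen after their values were seen. The Slc1a3 set held 133 UMIs of Il1rapl1 and 97 of the potassium channel gene Kcnq3, both at 0 in the Kcnb2 set, and Ttll3, a tubulin ligase gene, at 50 against 3 UMIs. The Kcnb2 set held 104 UMIs of the phosphodiesterase gene Pde10a and 49 of Ablim3, both at 0 in the Slc1a3 set. Rorb had 284 UMIs in the Kcnb2 set, of 490 over all members. With 7 and 5 nuclei these sets describe single nuclei of 1 sample.

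The other 19 members without Slc26a4 had fewer than 10 UMIs of Kcnb2, RP23-416J8.1 and Dgkb together, and 0 UMIs of Dgkb. Some carried other genes of the 12, with Ebf1 at up to 71 UMIs and Slc1a3 at up to 5 in a member led by Epyc. Of the 19, Epyc led the rule genes in 7 (5 to 16 UMIs each) and Ceacam16 in 11 (3 to 53 UMIs each). Genes named for these sets were chosen after their values were seen. With the rule genes left out, Prss36 led both sets against all other barcodes, at log2 ratios of 7.26 (6.89 to 7.62) and 7.04 (6.62 to 7.44). The 11 led by Ceacam16 were shallow, with a median of 1412 UMIs, and 5 of them were MethFix-only. Over all members, 6 had at least 10 UMIs of Dct, and 5 of these 6 were MethFix-only.

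**Figure D5:**
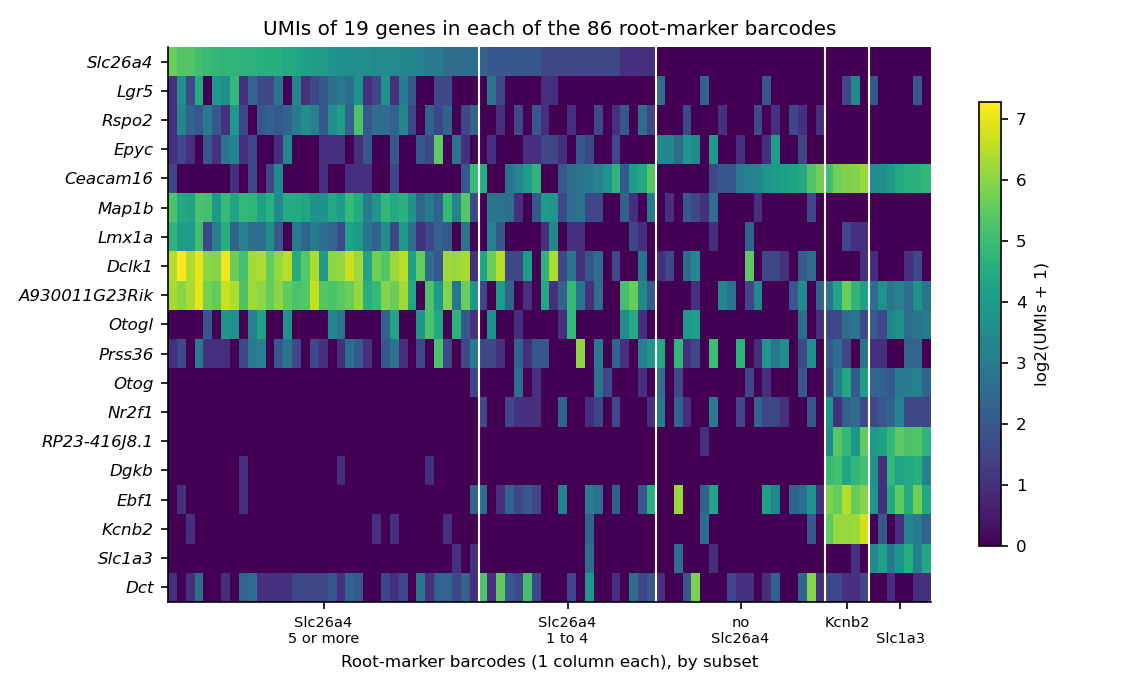
UMIs of 19 genes (rows, log2 of UMIs plus 1) in each of the 86 root-marker barcodes (columns), grouped by Slc26a4 UMIs and, at the right, by the Kcnb2 and Slc1a3 sets. Map1b and Dclk1 have UMIs in all 35 members with 5 or more Slc26a4 UMIs, and Lmx1a in 32 of them. RP23-416J8.1, Dgkb and Ebf1 fill the 12 columns at the right, and Ebf1 is seen in other columns too. UMIs are not scaled for depth.

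Some root-marker genes were near equal in spindle-rich barcodes and others were far lower there. The libraries were unequal in this comparison, since 38 of the 89 spindle-rich barcodes but 10 of the 86 members were MethFix-only. Slc26a4 differed by a log2 ratio of only 0.81 (0.61 to 1.01) between the groups, Itgbl1 by 0.06 (-0.09 to 0.22), Cldn14 by -0.34 (-0.73 to 0.05), Tmprss3 by 0.21 (-0.41 to 0.84) and Kcnj16 by 0.24 (-0.50 to 1.01). Rorb had 490 UMIs in members and 1 in spindle-rich barcodes, a log2 ratio of 8.65 (6.16 to 13.96). Without the 12 members described above that held most Otog UMIs, 121 of the 490 Rorb UMIs were left. Rgs6, a regulator of G protein signalling, had 583 against 8 UMIs, a log2 ratio of 5.90 (4.91 to 7.12), and Nr2f1 had 98 against 0, at least 4.74 higher. On the spindle side, Dpp10, a potassium channel auxiliary subunit, had 2 UMIs in members and 531 in spindle-rich barcodes, a log2 ratio of -8.34 (-11.39 to -6.48). Dkk2 had 1 against 286 UMIs, a log2 ratio of -8.45 (-13.76 to -5.96), and Agbl1 11 against 954, a log2 ratio of -6.73 (-7.73 to -5.88). Meis1 and Meis2 were at -4.10 (-4.74 to -3.53) and -4.50 (-5.48 to -3.67). In the RNAlater matrix alone, with 76 members and 51 spindle-rich barcodes, the log2 ratio was 0.76 (0.54 to 0.97) for Slc26a4, 8.26 (5.78 to 13.57) for Rorb and 6.12 (4.89 to 7.75) for Rgs6. On the spindle side it was -8.51 (-13.82 to -6.02) for Dkk2, -6.81 (-7.88 to -5.93) for Agbl1, -4.48 (-5.24 to -3.81) for Meis1 and -6.31 (-8.61 to -4.74) for Meis2. Part of this contrast is set by the rule, which placed spindle markers on the other side.

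Markers of cell types near the root cells were checked in members. The 4 hair cell markers (Myo7a, Pou4f3, Slc17a8 and Ocm) had 0 UMIs in all 86 members. Of 9 markers of supporting cells of the organ of Corti, 4 (Sox2, Tectb, Hes5 and Ngfr) had 0 UMIs. The most abundant was Slc1a3, with 104 of its 111 UMIs in members without Slc26a4. The 9 genes summed to 135 CPM in members with Slc26a4, 1169 CPM in those without and 98.1 CPM in all other barcodes. Of the 131 UMIs in members without Slc26a4, 99 were in the 7 members of the Slc1a3 set, and without these 7 the sum was 371 CPM. Slc1a3, which chose that set, made up most of these UMIs. The other 8 markers summed to 102 CPM in members with Slc26a4, 241 CPM in those without and 11.0 CPM in all other barcodes. They had 2 UMIs (77.8 CPM) in the Slc1a3 set and 290 CPM in the remaining members without Slc26a4. Most of the 49 UMIs of these 8 markers in members were of Otoa, the matrix gene called higher above. The part of these markers in the split was not tested. The 7 outer sulcus markers, Kcnj10 the most abundant, summed to 391 CPM in members and 370 CPM in the others. Without Kcnj10, which was also a gene of intermediate-marker barcodes (894 CPM), the other 6 summed to 232 CPM in members and 17.9 CPM in the others. Marginal markers summed to 638 CPM in members and 3955 CPM in the others, led by Kcnq1. Among RNAlater barcodes these sums were 444 and 3959 CPM, and among MethFix-only barcodes 2272 and 3943 CPM. Basal markers, led by Fat2, summed to 473 and 774 CPM. Their direction differed between libraries, with 417 CPM in members and 862 CPM in the others from RNAlater, but 949 and 488 CPM among MethFix-only barcodes. Fibrocyte markers summed to 101 and 205 CPM, with 61.5 and 226 CPM in RNAlater but 431 and 137 CPM in MethFix-only barcodes. The sums of macrophage, endothelial, pericyte and Schwann cell markers were at most 24.4 CPM in members. Neuron markers summed to 70.2 CPM in members and 64.5 CPM in the others, with Syt1 the most abundant. They were at 44.4 and 61.0 CPM in RNAlater and at 288 and 75.6 CPM in MethFix-only barcodes.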

How the data were processed

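Nuclei of P30 CBA/J stria vascularis were measured as UMI counts per gene and barcode. The deposited counts are unnormalised whole numbers for 48816 features, made by the authors with Cell Ranger (3.0.1) and Scanpy (1.4.5) on GRCm38, per the submitters' processing notes. The strand setting of the counting is not given in the sources used here. The matrices held 4748 (MethFix) and 3868 (RNAlater) barcodes, with medians of 3469 and 3998.5 UMIs per barcode. Barcodes with at least 200 genes, at most 8000 UMIs and at most 10% mitochondrial UMIs were kept. UMIs were summed per group and scaled to CPM. Ratios have exact 95% intervals from the split of 2 Poisson counts, and where a group had no UMI its count was taken as 3, the floor, to give a bound. With 1 sample per group no test was run, and calls rest on a log2 ratio of 2.

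The named genes were the 20 with the highest lower bound and the 10 with the lowest upper bound against all other barcodes, and the 10 of each kind in the split by Slc26a4, leaving out the genes of the marker rule and, in the split, Slc26a4. Against spindle-rich barcodes, genes were drawn from the 5 of each kind and the lists. The members and lists were chosen with earlier results of these data known. Gene positions came from GENCODE M21. Doublets were not removed in the values given, and Scrublet in scanpy (1.11.5) marked 224 of 3596 MethFix and 18 of 2329 RNAlater barcodes. Alternatives changed the marker sum, the quality limits, the library, the scaling (TMM in edgeR 4.0.16, median of ratios), the filters, the reference group and the depth. Scripts in Python (3.11.15, with SciPy 1.17.1 for intervals) and R (4.3.3) were tested on simulated data. Values of some list genes are not reported here.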

Additional observations from a re-analysis of the deposited data

Results flagged for a closer look

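Barcodes outside the quality limits also carried the root markers. Of 539 barcodes with more than 8000 UMIs, 22 (4.08%) met the marker rule, at a median of 12649 UMIs, and 7 of the 22 had a Slc26a4 UMI (51 UMIs in all). Of 1226 barcodes with more than 10% mitochondrial UMIs, 3 (0.245%) met the rule, and 0 of the 3 had a Slc26a4 UMI. These barcodes take no part in the comparisons above, and no control samples were analysed here.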

How the results depend on the processing

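Of 92 alternative values, 82 were labelled unchanged and 10 moved. The unchanged label covered 398 higher genes in place of 270, while a Slc26a4 log2 ratio of 5.41 in place of 5.63 counted as moved. Over these 82 values, genes higher in members numbered 222 to 398 and genes lower 189 to 299, and in the split by Slc26a4 83 to 140 genes were higher and 105 to 153 lower. Members numbered 72 to 108, the share with Slc26a4 was 57.4 to 68.4%, and the Slc26a4 log2 ratio was 5.54 to 5.75. That ratio was 5.41 in the MethFix matrix alone, 4.81 with no upper limit on UMIs, 4.27 against the mean of 5 marker classes and 6.91 without spindle-side barcodes among the others. With no upper limit on UMIs, 21 genes in place of 238 were lower in members and 317 in place of 118 lower with Slc26a4. Thinning to 1000 UMIs gave a share with Slc26a4 of 52.5%. Without the 12 members rich in Kcnb2, RP23-416J8.1 and Dgkb, an alternative added after the data were seen, 36 genes were lower with Slc26a4, the share with Slc26a4 was 74.3% and its log2 ratio 5.90. The causes of these changes were not tested. The median log2 ratio of the tested genes was -0.15, and -0.19 with TMM and -0.17 with median-of-ratios factors. Depth limits single members, since 20 of the 31 without Slc26a4 were too shallow to expect 3 UMIs at the level of members with 1 to 4 UMIs. No paired analysis was possible because the libraries share barcodes, were counted as 1 sample and gave no test.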

Other observations

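Further genes had high levels in members and are named after their values were seen. Pde4b, a cyclic AMP phosphodiesterase, had 4785 UMIs in 80 of 86 members. In the 35 members with 5 or more Slc26a4 UMIs it had 3322 UMIs against 9705 in all other barcodes, a log2 ratio of 4.93 (4.87 to 4.99). Fgf9, a fibroblast growth factor, had 96 UMIs in those 35 members against 155 in all other barcodes, a log2 ratio of 5.79 (5.40 to 6.16). Trpm3, a cation channel of the TRP family, had 2167 UMIs in 81 of 86 members. Zbtb20, a zinc finger factor from the lists, was found in all 86 members at a log2 ratio of 1.20 (1.15 to 1.25) against all other barcodes.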
